A study of Homo sapiens with 6 samples.

Results

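The genes examined here encode signalling factors that carry interferon and cytokine signals to the nucleus. The list holds the kinase JAK1, the transcription factors STAT2 and STAT3, the interferon regulatory factors IRF1, IRF2, IRF3, IRF7 and IRF9, and the inhibitor SOCS1. Members were all array probes whose gene symbol in the platform annotation is 1 of these 9, and each probe was compared on its own. They came to 13 of 47231 probes and covered 8 of the 9 genes, out of 20047 genes with a probe of their own. No probe carried the symbol STAT2 in the annotation used here, so STAT2 was not analysed here. Transcript levels came from A549 cells, a human lung adenocarcinoma line, collected 48 h after transfection. The NME2-induced group received pcDNA-NME2-MYC, a plasmid for NME2 with a MYC tag, and the control group received pcDNA-MYC, the plasmid with the tag alone. Each group had 3 biological replicates, each on its own Illumina Human HT-12 v4 array, and the comparison asks which transcripts change when NME2 is raised. All arrays come from 1 cell line that was transfected, and none from cells left untransfected. The share of cells that took up plasmid is not given in the sources used here.

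Type I and type III interferons bind receptors at the cell surface that hold kinases of the JAK family on their inner side. The kinases phosphorylate STAT proteins. STAT2 and IRF9 are subunits of the complex ISGF3, which binds the interferon-stimulated response element (ISRE), while STAT3 dimers bind the gamma-activated site (GAS). IRF3 and IRF7 act at the start of the loop, since they are activated by sensors of foreign nucleic acid and switch on the interferon genes. IRF1 activates and IRF2 mostly represses a shared set of genes, and SOCS1 closes the loop by binding and inhibiting JAK kinases.

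Between 19043 and 20047 probes were detected on an NME2-induced array, and between 19916 and 20726 on a control array, by a detection p-value under 0.05. The tests covered the 19394 probes detected on at least 3 of the 6 arrays. Epithelial markers were detected for 6 of 9 genes, KRT8 and EPCAM among them, fibroblast markers for 3 of 6 (COL1A1, COL1A2 and LUM), and endothelial markers for 0 of 5. Of 11 leukocyte markers with a probe, CD14, CD68 and CSF1R were detected and the pan-leukocyte gene PTPRC was not. Probes of the induced locus went both ways. The probe ILMN_2234873 of NME2 was at 8.35 in NME2-induced cells and 7.31 in control cells on the log2 scale, whereas ILMN_1662905, annotated to the readthrough NME1-NME2, was at 10.69 in NME2-induced cells and 12.67 in control cells (limma adjusted p = 0.0165 and 0.000503). Of the other NME2 probes, ILMN_1657884 was at 7.42 in NME2-induced cells and 8.01 in control cells without overlap (log2 fold change -0.59, limma adjusted p = 0.0743), and ILMN_2414007 was at 7.29 in NME2-induced cells and 7.03 in control cells, with overlap (log2 fold change 0.26, limma adjusted p = 0.567). The second NME1-NME2 probe, ILMN_1693430, passed as lower, at -1.89. With 1 array left out, ILMN_1693430 passed in 3 of 6 fits and ILMN_1662905 in all 6. The call of ILMN_2234873 was lost with any 1 array left out, at log2 fold changes between 0.97 and 1.07. The names of both groups below are those of the labels.

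No member probe passed the threshold, a limma p-value under 0.05 after Benjamini-Hochberg adjustment over all detected probes. Of the 13 member probes, 12 were detected, each on all 6 arrays, and 0 of these 12 passed, where 46 of the 19394 probes tested passed, or 0.237% (0.0928% higher and 0.144% lower in NME2-induced cells). The remaining IRF7 probe, ILMN_1674646, was detected on 0 of 6 arrays and entered no test. Before adjustment, 3 member probes had a limma p under 0.05 as higher in NME2-induced cells, for IRF1, IRF7 and SOCS1, and 0 as lower. Over all detected probes this held for 13.6%, with 6.28% higher and 7.32% lower. By the methods' t-test, run on the same log2 values, 2 member probes passed without adjustment and 0 with it. Log2 fold changes of the 12 probes lay between -0.38 and 0.34, with a median of -0.02 beside 0.00 over all detected probes, and 5 were above 0 and 7 below, where 49.4% of all detected probes were above 0. Without overlap between the groups, 3 member probes were higher, beside 10.1% of all detected probes, and 1 was lower, beside 10.8%, so that 4 of 12 stood beside 20.9%.

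**Figure D1:**
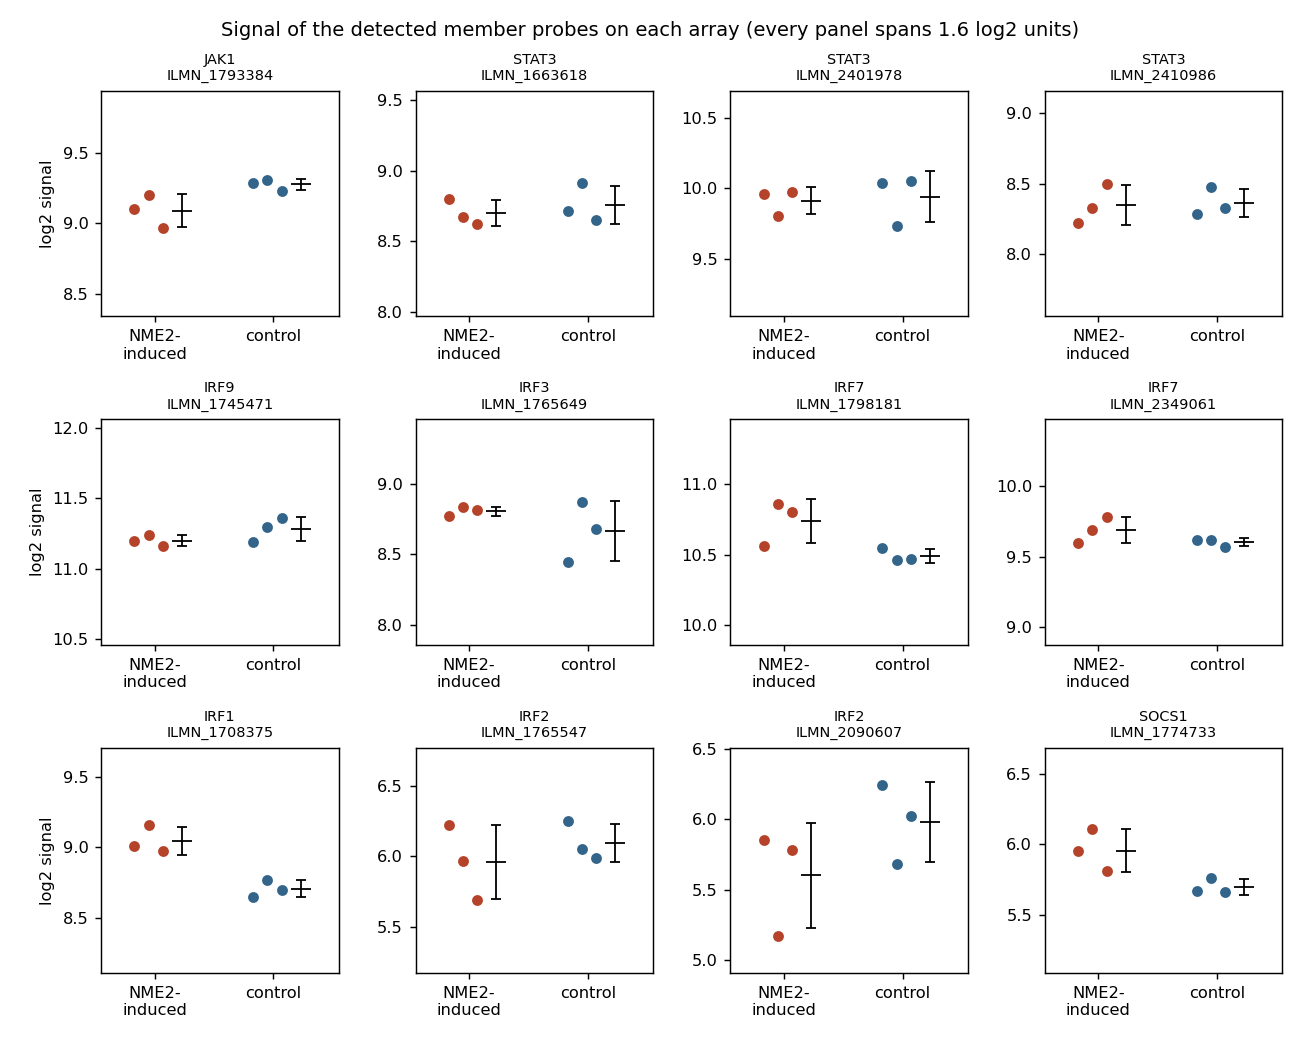
Log2 signal of the 12 detected member probes, 1 panel per probe. Red points are the 3 NME2-induced arrays, blue points the 3 control arrays, and the bar beside each group is its mean with the SD. The groups do not overlap for IRF1, SOCS1, JAK1 and the IRF7 probe ILMN_1798181, and overlap for the other 8 probes.

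Among the activating factors, the highest fold change was that of IRF1. IRF1 is a transcription factor on chromosome 5 that is itself induced by interferon gamma and activates genes such as CXCL10, IDO1 and those of antigen presentation. Its 1 probe, ILMN_1708375, had deposited signals of 498.3, 558.2 and 486.7 on the NME2-induced arrays and of 385.4, 420.8 and 399.4 on the control arrays. On the log2 scale these were 9.01, 9.16 and 8.97 in NME2-induced cells, against 8.65, 8.77 and 8.70 in control cells. All 3 NME2-induced values lay above all 3 control values. The difference was 1.27-fold (log2 fold change 0.34, SE 0.09, 95% confidence interval 0.13 to 0.56) and missed the adjusted threshold (limma adjusted p = 0.206). It passed under 1 alternative, a variance model with a trend on signal and protection against outlying probes (limma adjusted p = 0.0282).

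The promoters of IRF1, SOCS1 and IRF9 are shown because each holds 1 match to a motif of this pathway. IRF1 and SOCS1 had non-overlapping groups, and IRF9 did not. Each sequence is the 250 bases before the annotated start site in RefSeq on GRCh38.p14, and capitals mark the match. The motifs searched were TTCNNNGAA for GAS, which reads alike on both strands, and for ISRE the letters GAAA, any 2 bases and GAAA again, on either strand. No window shown held both motifs.
IRF1, chr5:132490774-132491023, minus strand: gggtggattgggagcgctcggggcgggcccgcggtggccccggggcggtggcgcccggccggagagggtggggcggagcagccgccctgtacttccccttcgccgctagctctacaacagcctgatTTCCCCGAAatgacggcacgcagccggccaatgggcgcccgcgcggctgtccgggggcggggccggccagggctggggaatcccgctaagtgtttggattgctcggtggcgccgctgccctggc
SOCS1, chr16:11256205-11256454, minus strand: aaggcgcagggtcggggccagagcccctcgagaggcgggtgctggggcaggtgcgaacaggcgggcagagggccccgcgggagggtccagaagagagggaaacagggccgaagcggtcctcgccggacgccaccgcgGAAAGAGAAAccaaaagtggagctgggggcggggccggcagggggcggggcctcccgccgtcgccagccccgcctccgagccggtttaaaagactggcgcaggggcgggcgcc
IRF9, chr14:24161015-24161264, plus strand: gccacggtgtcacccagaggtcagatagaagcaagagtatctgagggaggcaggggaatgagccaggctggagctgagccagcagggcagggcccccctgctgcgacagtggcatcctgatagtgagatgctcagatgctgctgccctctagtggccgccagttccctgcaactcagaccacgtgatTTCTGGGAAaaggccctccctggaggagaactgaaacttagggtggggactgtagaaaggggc
The GAS match of IRF1 began 124 bases and that of IRF9 63 bases before the start site, and the ISRE match of SOCS1 began 113 bases before it. Among 35116 promoter windows of this length, 6.57% held the GAS letters and 3.02% the ISRE letters. The window of STAT3 and the 3 windows of JAK1 held neither, and the promoters of IRF2, IRF3 and IRF7 were not searched here. A match gives letters only, and binding was not measured here.

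SOCS1 encodes the inhibitor of JAK kinases that interferons induce, on chromosome 16. Its probe ILMN_1774733 was at 5.95, 6.11 and 5.81 in NME2-induced cells, against 5.67, 5.76 and 5.66 in control cells. The 2 groups did not overlap, but the lowest NME2-induced array lay only just above the highest control array. The log2 fold change was 0.26 (SE 0.10, 95% confidence interval 0.02 to 0.51), a 1.20-fold difference that did not pass (limma adjusted p = 0.339). The deposited signals were low, between 40.2 and 53.4 on NME2-induced arrays and between 34.6 and 38.5 on control arrays. The size depended on the offset added before the log2 step. With an offset of 50 in place of 16, the log2 fold change of SOCS1 was 0.17.

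IRF7 is the factor that amplifies type I interferon production and is itself induced by ISGF3. It had 2 detected probes, both annotated to the same transcript record on chromosome 11. ILMN_1798181 was at 10.56, 10.86 and 10.80 in NME2-induced cells, against 10.55, 10.46 and 10.47 in control cells. Its lowest NME2-induced value, that of replicate 1, was next to the highest control value, and the other 2 lay clear of the control arrays. The log2 fold change was 0.25 (SE 0.10, 95% confidence interval 0.00 to 0.49), or 1.19-fold (limma adjusted p = 0.362). ILMN_2349061 was at 9.60, 9.69 and 9.78 in NME2-induced cells, against 9.62, 9.62 and 9.57 in control cells, and these groups overlapped. The fold change was 0.09 on the log2 scale (95% confidence interval -0.12 to 0.29, limma adjusted p = 0.69). The 2 fold changes differed by 0.16, with p = 0.1 by a 2-sided exact permutation test over the arrays, which is the smallest p that 3 against 3 allows. The undetected probe ILMN_1674646 lay between 4.18 and 4.24 on NME2-induced arrays and between 4.21 and 4.39 on control arrays.

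IRF3, the constitutive factor that first turns on IFNB1, had 1 probe, ILMN_1765649. It was at 8.77, 8.83 and 8.81 in NME2-induced cells, against 8.44, 8.87 and 8.68 in control cells. The NME2-induced arrays lay close together within the wider range of the control arrays. The log2 fold change was 0.14 (95% confidence interval -0.14 to 0.42, limma adjusted p = 0.637), and it was 0.03 without control replicate 1.

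IRF9, the DNA-binding subunit of ISGF3, had 1 probe on chromosome 14, ILMN_1745471. It was at 11.20, 11.24 and 11.16 in NME2-induced cells, against 11.19, 11.30 and 11.36 in control cells. The groups overlapped. The log2 fold change was -0.09 (SE 0.09, 95% confidence interval -0.29 to 0.12, limma adjusted p = 0.702), so that a rise of IRF9 by more than 0.12 on the log2 scale lay outside the interval.

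IRF2, which competes with IRF1 for the same DNA element, was read by 2 probes of the same transcript record on chromosome 4. ILMN_2090607 was at 5.85, 5.17 and 5.78 in NME2-induced cells, against 6.24, 5.68 and 6.02 in control cells. ILMN_1765547 was at 6.22, 5.97 and 5.69 in NME2-induced cells, against 6.25, 6.05 and 5.99 in control cells. Both probes had overlapping groups, and over the NME2-induced arrays their SDs of 0.38 and 0.26 exceeded those of the other member probes. The log2 fold changes were -0.38 (95% confidence interval -0.88 to 0.12) and -0.14 (95% confidence interval -0.48 to 0.21), with limma adjusted p = 0.481 and 0.721. Without NME2-induced replicate 2 the first was -0.16, and the second was 0.00 without NME2-induced replicate 3, -0.06 without control replicate 1 and -0.27 without NME2-induced replicate 1. Without control replicate 1 the first was -0.25. The difference between the 2 probes over all arrays was 0.24, with p = 0.7 by the exact permutation test, 2-sided.

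JAK1 is the kinase that type I, type II and type III interferon receptors and the gp130 receptors share. Its probe on chromosome 1, ILMN_1793384, was at 9.10, 9.20 and 8.97 in NME2-induced cells, against 9.29, 9.31 and 9.23 in control cells. It was the 1 member probe whose NME2-induced values all lay below the control values. The difference was 1.14-fold (log2 fold change -0.19, SE 0.09, 95% confidence interval -0.41 to 0.03) and did not pass (limma adjusted p = 0.437).

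STAT3, the main effector of interleukin 6 and related cytokines, had 3 detected probes on chromosome 17 and the smallest differences of all members. ILMN_2401978 was at 9.96, 9.80 and 9.97 in NME2-induced cells, against 10.04, 9.73 and 10.05 in control cells. ILMN_1663618 was at 8.80, 8.67 and 8.62 in NME2-induced cells, against 8.71, 8.91 and 8.65 in control cells. ILMN_2410986, annotated to another transcript record of the gene than these 2, was at 8.22, 8.33 and 8.50 in NME2-induced cells, against 8.29, 8.48 and 8.33 in control cells. The groups overlapped for all 3 probes. The log2 fold changes were -0.03, -0.06 and -0.01 in this order, with limma adjusted p = 0.928, 0.828 and 0.974. Their 95% confidence intervals together ran between -0.31 and 0.24, and each fold change turned its sign in at least 1 fit that left out an array, at values of 0.01 to 0.05. Differences between STAT3 probes gave exact permutation p of 0.8, 0.9 and 0.9, 2-sided.

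**Figure D2:**
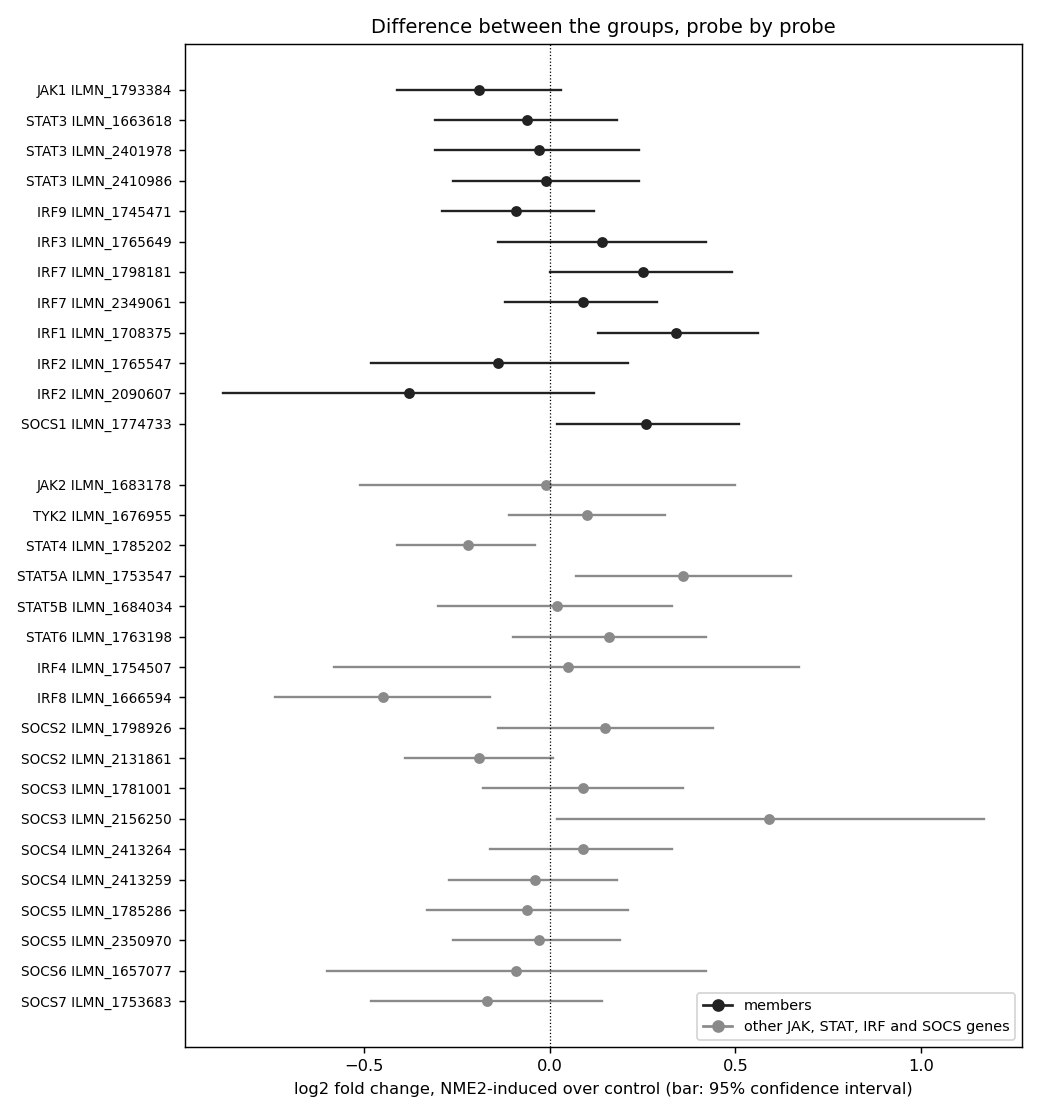
Log2 fold change of each probe, NME2-induced over control, as a point with its 95% confidence interval from limma. Members are in black, and other JAK, STAT, IRF and SOCS genes in grey. The intervals of IRF1 and SOCS1 lie above 0, and the interval of the IRF7 probe ILMN_1798181 begins at 0.00.

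Of 18 detected probes for 14 other JAK, STAT, IRF and SOCS genes, 0 passed limma's adjusted threshold. An unadjusted limma p under 0.05 was found for 2 as higher and 2 as lower, beside 6.28% and 7.32% of all detected probes. STAT5A, an effector of growth hormone and several interleukins, was at 7.46, 7.35 and 7.58 in NME2-induced cells, against 7.30, 7.10 and 6.91 in control cells (log2 fold change 0.36, limma adjusted p = 0.292). STAT4, best known from lymphocytes as an effector of interleukin 12, was at 7.91, 7.86 and 7.91 in NME2-induced cells, against 8.15, 8.11 and 8.10 in control cells (log2 fold change -0.22, limma adjusted p = 0.304). For both genes the groups did not overlap, which held for 20.9% of all detected probes. IRF8, a factor of myeloid and lymphoid cells, was detected on 0 NME2-induced arrays and 3 control arrays, and was not well above background in NME2-induced cells. Its level was at least 1.26-fold lower there, set against the lowest detected signal of each array (log2 fold change -0.45, limma adjusted p = 0.209). All arrays are of the A549 line, and of the leukocyte markers only CD14, CD68 and CSF1R were detected. None of the 4 detected leukocyte probes passed, and CD68 had a log2 fold change of 0.11 by both detected probes. The summed signal of all probes of the leukocyte list, detected or not, was higher on NME2-induced arrays. It lay between 3574 and 3797 there and between 3330 and 3514 on control arrays. The sum of the epithelial list lay between 9301 and 10002 on NME2-induced arrays and between 8596 and 9606 on control arrays. The relation of the leukocyte sum to the lower values of STAT4 and IRF8 was not tested. In such bulk RNA, a change in all cells and a change in some of them cannot be told apart.

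The remaining JAK kinases and STAT and IRF factors were closer to 0. JAK2 had a log2 fold change of -0.01 and TYK2, the partner of JAK1 at type I interferon receptors, of 0.10. STAT5B was at 0.02, STAT6 at 0.16 and IRF4 at 0.05. SOCS3, the inhibitor of gp130 signalling that STAT3 induces, had log2 fold changes of 0.09 and 0.59 by its probes ILMN_1781001 and ILMN_2156250, of which the second was detected on 2 NME2-induced arrays and 1 control array (limma adjusted p = 0.768 and 0.355). This second SOCS3 probe had an unadjusted limma p of 0.0441 and the highest fold change of the 18 probes. The 8 detected probes of SOCS2, SOCS4, SOCS5, SOCS6 and SOCS7 lay between -0.19 and 0.15.

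Among the ligands at the top of the pathway, the probes of IFNB1, IFNL1, IFNL2 and IFNL3 had larger fold changes than any member probe, and the other 6 ligand probes, of IFNE, IL6, LIF and IL11, lay between -0.18 and 0.25. This list of interferons and gp130 cytokines was added with their values known. Of its 11 detected probes, 4 passed as higher in NME2-induced cells and 0 as lower, beside 0.0928% and 0.144% of all detected probes. IFNL1, a type III interferon, was at 8.40, 8.44 and 8.59 by ILMN_2149624 in NME2-induced cells, against 7.17, 7.15 and 7.29 in control cells (log2 fold change 1.27, limma adjusted p = 0.00638), and this held in 4 of 6 fits with 1 array left out. The type I interferon IFNB1 was at 8.53, 8.50 and 8.41 in NME2-induced cells, against 7.68, 7.46 and 7.55 in control cells (log2 fold change 0.91, limma adjusted p = 0.0259). The other 2 that passed were IFNL2 (0.75) and IFNL3 (0.90), nearly identical genes whose probes may read both. The second IFNL1 probe, ILMN_1684570, had a log2 fold change of 1.03 and did not pass (limma adjusted p = 0.0536). With any 1 array left out, IFNB1, IFNL2 and IFNL3 no longer passed, with log2 fold changes between 0.70 and 1.01. The gp130 ligands IL6 (0.21), LIF (0.25) and IL11 (-0.18) did not pass.

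Receptor chains, inhibitors and upstream adaptors had few differences. Among 15 detected probes of receptor chains that bind JAK kinases, 0 passed, with a median log2 fold change of 0.04. The chains with the smallest p were OSMR, for oncostatin M (-0.24), and IL22RA1, for interleukin 22 (0.39). Among 23 probes of inhibitors 0 passed, with a median of -0.04. PIAS1, a SUMO ligase, was at -0.29 and the phosphatase gene PTPN11 at -0.20. Of 18 probes upstream of IRF3 and IRF7, 0 passed. IKBKE, a kinase that phosphorylates both factors, was at 6.36, 6.42 and 6.58 in NME2-induced cells, against 6.11, 6.05 and 6.03 in control cells (log2 fold change 0.39, limma adjusted p = 0.17). TANK, an adaptor of these kinases, had log2 fold changes of -0.37, -0.13 and 0.19 by its 3 probes. Of 6 probes of IRF2 cofactors, 0 passed, and IRF2BPL, a relative of the IRF2-binding corepressors, was at 9.48, 9.47 and 9.36 in NME2-induced cells, against 9.96, 9.73 and 9.88 in control cells (log2 fold change -0.42, limma adjusted p = 0.162). Counts with an unadjusted limma p under 0.05 were 0 higher and 1 lower among receptor chains and 1 and 2 among inhibitors. They were 2 and 1 upstream of IRF3 and IRF7, and 0 and 2 among cofactors. Over all detected probes the shares were 6.28% higher and 7.32% lower.

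**Figure D3:**
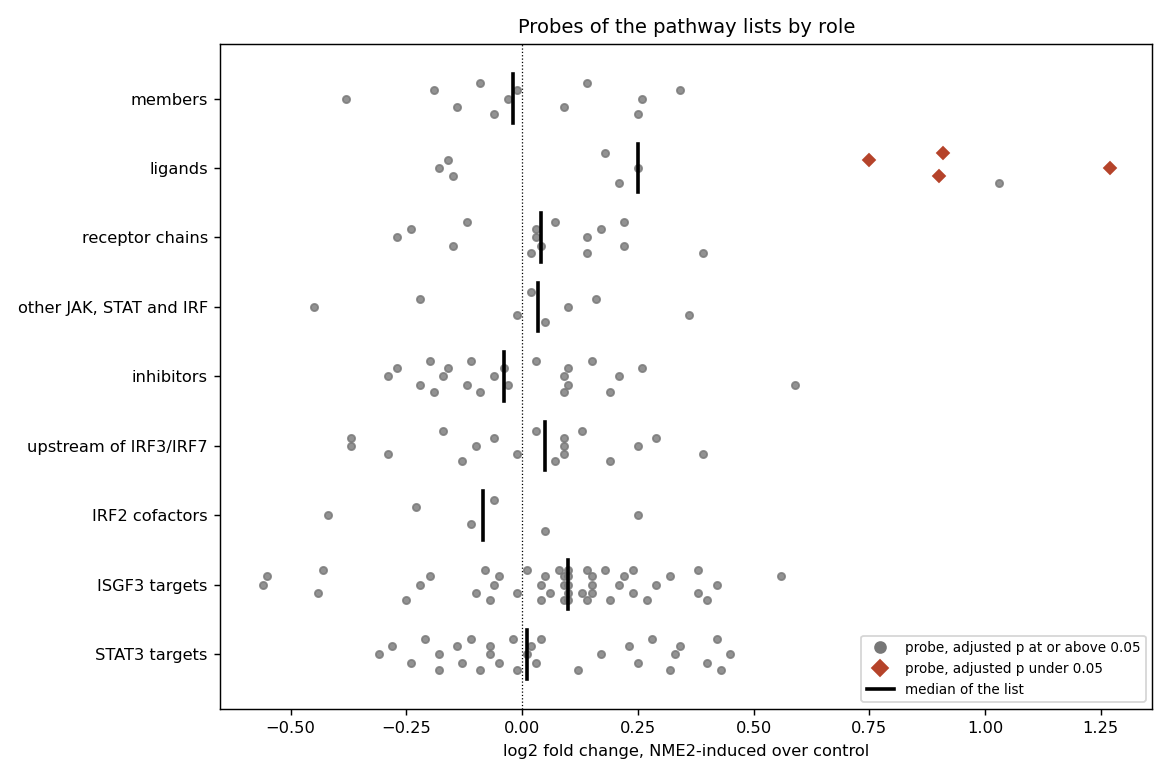
Log2 fold change of every detected probe of the members and of the lists by role, NME2-induced over control. Red diamonds passed limma's adjusted threshold, grey points did not, and the black bar is the median of each list. The ligands hold 4 calls, and the members and the other lists drawn hold none.

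Among target genes of the pathway, 4 probes passed, 3 as higher and 1 as lower in NME2-induced cells. CXCL10, a chemokine for activated T cells, was at 8.43, 8.42 and 8.42 in NME2-induced cells, against 7.38, 7.36 and 7.49 in control cells (log2 fold change 1.01, limma adjusted p = 0.011). IDO1, an enzyme that degrades tryptophan, had log2 fold changes of 1.07 and 0.98 by its 2 probes (limma adjusted p = 0.018 and 0.0224). One probe of IL15, ILMN_1785312, was detected on 0 NME2-induced arrays and 3 control arrays and was at least 1.31-fold lower in NME2-induced cells (limma adjusted p = 0.0316), while the other IL15 probe, ILMN_1724181, had a log2 fold change of -0.12. These 4 calls needed all 6 arrays. With any 1 left out, 0 of the 4 passed, at log2 fold changes between 0.91 and 1.13 for CXCL10 and IDO1 and between -0.83 and -0.71 for IL15.

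Targets of ISGF3 had 47 detected probes, of which 0 passed. Of these, 34 had a log2 fold change above 0, beside 49.4% of all detected probes, with a median of 0.10. Without adjustment, 9 were higher and 6 lower at a limma p under 0.05, beside 6.28% and 7.32% of all detected probes. OASL, an antiviral protein, was at 11.04, 11.04 and 11.11 by ILMN_1674811 in NME2-induced cells, against 10.53, 10.51 and 10.48 in control cells (log2 fold change 0.56, limma adjusted p = 0.057). IFIT3, an antiviral RNA-binding adaptor, had 3 probes with fold changes of both signs, and 0 of them passed. Its probe ILMN_1701789 averaged 12.47 ± 0.07 in NME2-induced cells and 12.16 ± 0.13 in control cells (SD, 3 arrays each, log2 fold change 0.32, limma adjusted p = 0.256). By ILMN_1664543 it was at 6.94, 6.75 and 6.92 in NME2-induced cells, against 7.43, 7.34 and 7.49 in control cells (log2 fold change -0.55, limma adjusted p = 0.0955), and ILMN_2239754 had a log2 fold change of -0.43. The groups did not overlap for any of the 3 probes, in opposite directions, which held for 20.9% of all detected probes. Of the 47 ISGF3 target probes, 15 were higher and 6 lower without overlap, beside 10.1% and 10.8% of all detected probes.

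**Figure D4:**
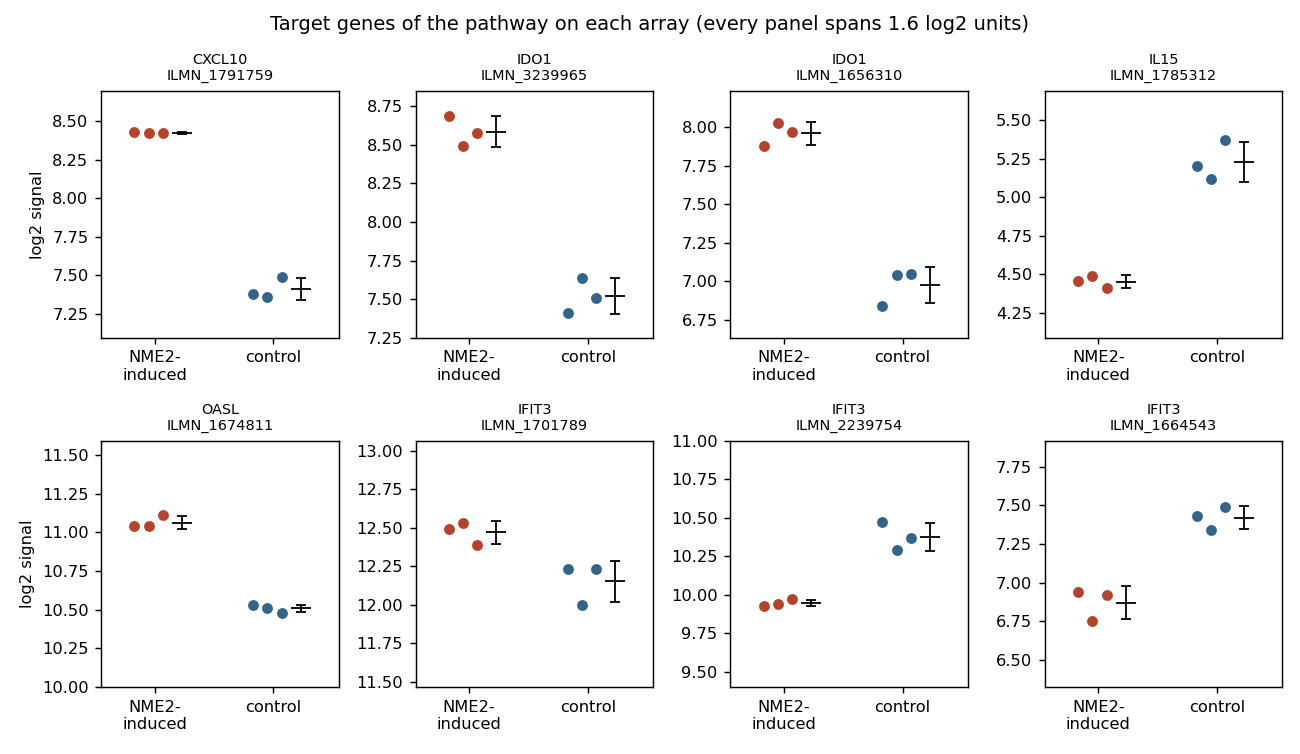
Log2 signal of 8 probes of target genes, NME2-induced arrays in red and control arrays in blue, with the mean and SD of each group. CXCL10, both IDO1 probes, OASL and the IFIT3 probe ILMN_1701789 are higher on all 3 NME2-induced arrays, whereas IL15 ILMN_1785312 and the IFIT3 probes ILMN_2239754 and ILMN_1664543 are lower.

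Targets of STAT3 had 31 detected probes, of which 0 passed, with 16 above 0 and a median log2 fold change of 0.01 (range -0.31 to 0.45). Without adjustment, 7 were higher and 3 lower at a limma p under 0.05, beside 6.28% and 7.32% of all detected probes. MCL1, a survival factor of the BCL2 family, was at 10.00, 10.05 and 10.06 by ILMN_1803988 in NME2-induced cells, against 9.60, 9.57 and 9.59 in control cells (log2 fold change 0.45, limma adjusted p = 0.0978), and at -0.11 by its second probe. CEBPD, a transcription factor of the acute phase response, was at 11.08, 11.08 and 11.25 in NME2-induced cells, against 10.71, 10.82 and 10.62 in control cells (log2 fold change 0.42, limma adjusted p = 0.17). Of the 172 detected probes in the pathway lists together, 3 passed as higher and 1 as lower.

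By their values over the 6 arrays, the probes most like a member were found for the 3 member probes with an unadjusted p under 0.05. For IRF1 they belonged to FAM24B, EMC6 and ANKS1A (Pearson r of 0.997, 0.992 and 0.989). For the IRF7 probe ILMN_1798181 they belonged to EPHX4, NOTCH2NLA and DBI (r of 0.991, 0.987 and 0.986), and for SOCS1 to AKAP17A, GCNT3 and TGIF1 (r of 0.996, 0.992 and 0.986). These values are descriptive, since all probes share the same 6 arrays and 2 groups, and 329, 217 and 168 probes exceeded r = 0.9 with IRF1, IRF7 and SOCS1.

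**Figure D5:**
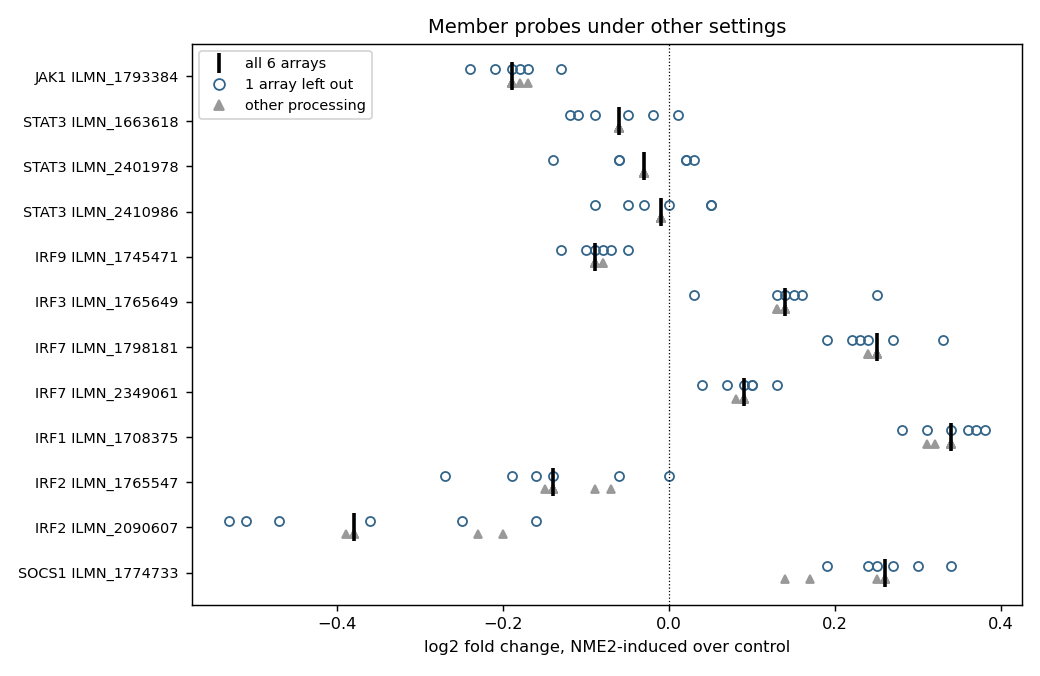
Log2 fold change of each member probe under every setting, NME2-induced over control. The black bar is the value from all 6 arrays, open circles are fits with 1 array left out, and triangles are other processing. Only the 3 STAT3 probes change sign, and IRF1 stays between 0.28 and 0.38.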

How the data were processed

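Total RNA of 3 NME2-induced and 3 control biological replicates of A549 cells was labelled with biotin and read in 1 colour on Illumina HT-12 v4 bead arrays. The authors exported signals and detection p-values with BeadStudio, whose version is not given in the sources used here. Linear intensities were deposited. The table is titled as not normalized, yet all 6 arrays share the same minimum (-44.94), upper quartile (60.21) and maximum, and between 26.65% and 26.75% of values are at or below 0, so the authors appear to have subtracted background and quantile-normalized them. Total brightness can therefore not be compared between arrays. The 2 deposited tables hold identical intensities.

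Intensities were processed with neqc of limma 3.58.1 in R 4.3.3, which models background from the detection p-values, adds an offset of 16 and takes quantile-normalized log2 values. A fold change on this scale understates that of dim probes. Each probe was tested with lmFit and eBayes, 2-sided, with Benjamini-Hochberg adjustment over the 19394 probes that had a detection p under 0.05 on at least 3 arrays, and a threshold of 0.05. SE is the moderated standard error. Its median over these probes was 0.12 on the log2 scale, and the number of arrays limits the precision. Of all probes, 30113 had 1 symbol in the platform annotation, 8 several and 17110 none. The script was tested on simulated data.

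The members and the gene lists were chosen with earlier results of these data known. Text names every member probe, all JAK, STAT, IRF and SOCS genes, list genes past the threshold, the 2 genes with the smallest p of each list, and the 3 probes most like each member probe with p under 0.05. The list of ligands and that of the NME2 locus were added after their values were seen. Ligands, IL15 ILMN_1724181 and the markers were named besides. No value was tested for a cause. Alternatives covered background correction, offset, quantile step, filter, variance model, 1 probe per gene, replicate block, the methods' t-test and each replicate left out. One list of target genes is not reported here as a list.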

Additional observations from a re-analysis of the deposited data

How the results depend on the processing

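The count of 0 member probes past the threshold was the same under all alternatives but 2. It was 1 (IRF1) when eBayes was run with trend and robust and 2 with the methods' t-test at its unadjusted threshold. Of 188 values of member probes under alternatives, 181 kept direction and side of the threshold, 1 passed and 6 turned sign, all 6 for STAT3 with 1 array left out. With 1 array left out, the ranges were -0.14 to 0.03 for ILMN_2401978, -0.12 to 0.01 for ILMN_1663618 and -0.09 to 0.05 for ILMN_2410986. The probes that turned sign besides ranged from -0.22 to 0.15 for JAK2, -0.13 to 0.12 for STAT5B, -0.25 to 0.21 for IRF4, -0.16 to 0.01 and -0.09 to 0.04 for SOCS5, -0.26 to 0.14 for SOCS6 and -0.44 to 0.04 for IFNE.

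Counts over all probes depended on the settings. The 46 probes past the threshold became 235 with an offset of 50, 278 with normexp without control probes, 116 with detection on all 6 arrays, 29 without a filter on dim probes and 476 with trend and robust. They became 28 with 1 probe per gene, where fewer features were tested, 3 with the replicate block, 2558 with the methods' t-test unadjusted and 6 after adjustment. With 1 array left out they were 3 to 6. The 4 pathway list probes past the threshold became 15 with an offset of 50, 16 with normexp, 23 with trend and robust, 0 with the replicate block, 49 and 1 with the methods' t-test unadjusted and adjusted, and 0 to 0 with 1 array left out. Same-numbered arrays showed little shared deviation from their group means (correlations of -0.023 to 0.02). These correlations cannot settle whether such arrays were handled as pairs, which the labels do not say. The replicate block changed no call of a member, with 0 passing. The cause of these shifts in the counts was not tested. Dim probes, such as those of SOCS1 and IRF2, limit what these arrays can show.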
